A study of Mus musculus with 19 samples.

Results

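Motile cilia genes encode the parts of cilia that beat, or switch those parts on, and 39 of them were followed through whole-ovary RNA of ageing mice. The 39 were chosen by name as a gauge of ciliated epithelium. Of these, 28 have a row under their own symbol among the 36172 genes of the table. All 28 were among the 15518 genes left by a filter on low counts, and counts over the set below are over these 28. The other 11 stand in the table under older names and were matched by NCBI gene ID. Of the 11, the dynein heavy chains Dnah1, Dnah2, Dnah5, Dnah6, Dnah7a, Dnah9, Dnah10 and Dnah11 were tested, and these 8 are given apart. Dnah3, Dnah12 and Pifo are listed at 0 in every library, and for none of the 3 can the table tell a silent gene from one that was not counted. The gene written 1700009P17Rik is named Cfap126 in the RefSeq annotation. The row named Spag6 carries the ID of Spag6l, a near copy of Spag6.

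RNA came from whole ovaries of C57BL/6 females, mice of an inbred strain, aged 3 months (5 libraries), 6 months (5 libraries), 9 months (5 libraries) and 12 months (4 libraries). The labels give no genetic change and no treatment, so age is what sets the groups apart. They do not say that the libraries of an age come from separate mice, so p-values measure only how these libraries vary, and part of that variation may be technical. In RNA from a whole organ, fewer cells of a type and less RNA per cell cannot be told apart.

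A motile cilium is a fine extension of the cell surface built on the axoneme, a cylinder of doublet microtubules around a central pair. Outer and inner dynein arms are the motors that slide the doublets, and radial spokes and the central pair coordinate them. Foxj1 is the transcription factor that switches on the genes of motile cilia, together with RFX factors that bind a sequence called the X-box. In the female reproductive tract, cells with many motile cilia line the oviduct, which lies against the ovary, and ciliated cells are also known from the rete ovarii.

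Promoters of the set were searched for the X-box, because the RFX factors that bind it act on genes of motile cilia. Whether the X-box bears on how the genes moved between libraries was not tested. RefSeq windows of build GRCm38.p6 were used, each 250 bases before to 50 bases after a gene's start, with both strands searched. The X-box has paired half-sites. The loose form searched was GTNNCC, then 3 bases of any kind, then GNAAC. The strict form had GTTGCC in place of GTNNCC, so its matches are all loose matches too. These forms were chosen after match counts of several forms had been seen, so the shares are a description. Of the 28 genes, 21 had windows, 26 in all. The loose form was in 5 of 26 windows (19.2%), against 2.69% of the 15449 windows of tested genes and 2.17% of all 32851 windows. The lists of other cilia genes described further on had similar shares, 19.8% of 86 windows of other motile cilia genes and 15.2% of 33 windows of intraflagellar transport and BBSome genes. The strict form was in 3 of 26 windows (11.5%), those of Hydin, Spag16 and Tekt4, against 0.524% of windows of tested genes and 0.426% of all windows. It was in 6.98% of the windows of other motile cilia genes and in 3.03% of those of intraflagellar transport and BBSome genes. The forkhead letters TGTTTAC were in 2 of 26 windows (7.69%), those of Ak7 and Tekt3, against 2.65% of windows of tested genes and 3.65% of all windows. Letters that match are not shown to be a binding site.

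The windows with a loose match are shown because they hold the letters counted above. Each sequence reads 5′ to 3′ on the strand of its gene, and capitals mark each match, which may read as the stated form only on the opposite strand. Hydin, of the central pair, is a plus strand gene whose match reads on the minus strand, within chr8:110266943-110266982. Spag16, also of the central pair, is a plus strand gene with its match on the same strand, within chr1:69826854-69826893. The Spag6 row is a minus strand gene whose match reads on the plus strand, within chr16:16829314-16829342. Zmynd10, which helps to assemble dynein arms, is a plus strand gene whose match reads on the minus strand, within chr9:107547291-107547330. Tekt4, which turned out the member with the largest difference between 12 and 3 months, has a pair of matches, and its whole window is shown. Tekt4 is a plus strand gene with its window at chr17:25471340-25471639; the match farther from the start reads on the plus strand, and the one at the start, the strict one, on the minus strand.
Hydin: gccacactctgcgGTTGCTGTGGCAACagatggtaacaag
Spag16: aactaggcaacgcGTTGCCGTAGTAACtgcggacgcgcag
Spag6: ccggttgctgtcgGTTGCCCTGGAGACgc
Zmynd10: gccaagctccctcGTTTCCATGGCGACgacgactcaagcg
Tekt4: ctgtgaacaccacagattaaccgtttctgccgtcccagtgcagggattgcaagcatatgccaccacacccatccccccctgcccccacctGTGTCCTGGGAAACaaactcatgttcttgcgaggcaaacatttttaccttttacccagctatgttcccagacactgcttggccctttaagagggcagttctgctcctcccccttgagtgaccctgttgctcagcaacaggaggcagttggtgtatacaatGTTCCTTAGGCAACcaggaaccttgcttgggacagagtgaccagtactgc

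Levels are CPM, counts scaled to the effective library size, and library totals ran from 10851519 to 14302207 estimated counts. Genes of the ovary were present in every library: Gdf9 of the oocyte at 3.81 to 79.5 CPM, Foxl2 of granulosa cells at 83.6 to 188 CPM and Cyp17a1 of theca cells at 23.2 to 745 CPM. The lowest value of each of these ovary genes was in the 9 month library 2. That library was also the highest of its age for 23 of the 28 cilia genes, as given below. Some libraries stood apart by genes of other organs. Cr2, a B-cell receptor gene used here for lymph node, was at 6.15 CPM in the 9 month library 1, 10.7 CPM in the 9 month library 2 and 12.5 CPM in the 12 month library 2, and under 1 CPM in the other 16. Alb, the liver gene for albumin, was at 44.0, 109 and 362 CPM in the 9 month libraries 1, 2 and 3. Results are given with all libraries, and again without these.

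Per length, Tppp3, a tubulin-binding protein gene, had the highest level of the 28 at 48.0 CPM per kilobase of exon averaged over 19 libraries, followed by Foxj1 at 41.8, Capsl, which encodes a calcium-binding protein, at 32.9 and Rsph1 at 20.99. Rp1, a microtubule protein gene best known from photoreceptors, had the lowest level at 0.304 CPM per kilobase. The heavy chains, whose transcripts are among the longest, ran from 0.836 CPM per kilobase for Dnah10 to 7.41 CPM per kilobase for Dnah5. Without length, Foxj1 was highest at 109.6 CPM on average and Tekt3 lowest at 1.92 CPM.

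The 28 genes moved together from library to library within an age, and more than most genes did. Summed over the 28, the level was 630.1, 629, 716, 868 and 622 CPM in the 3 month libraries and 788, 826, 859.6, 820.1 and 704 CPM in the 6 month libraries. The sum was 580.5, 927, 513, 714 and 711 CPM in the 9 month libraries and 1131, 559.6, 1064 and 767 CPM in the 12 month libraries. The groups overlap: the lowest sum at 12 months lies below every sum at 3 months and the highest lies above them all. The mean sum was 693 ± 105 CPM in the 3 month libraries, 800 ± 59.0 CPM in those of 6 months, 689 ± 159 CPM in those of 9 months (SD, n = 5 each) and 881 ± 266 CPM in those of 12 months (n = 4).

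The same libraries set the extremes for nearly the whole set. At 3 months library 4 was the highest of its age for 23 of the 28 genes. At 9 months library 2 was the highest for 23 and library 3 the lowest for 21. At 12 months library 1 was the highest for 22, and library 2 was the lowest for 27, all but Spef2. Of these, the 9 month library 2 and the 12 month library 2 are the ones with Cr2 over 10 CPM, at opposite ends of their ages for cilia genes. For each gene the highest library of an age was divided by the lowest. The median ratio of the 28 genes at 3, 6, 9 and 12 months was 1.49, 1.34, 1.88 and 2.12. Over all genes compared it was 1.28, 1.25, 1.39 and 1.35 at the same ages.

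**Figure D1:**
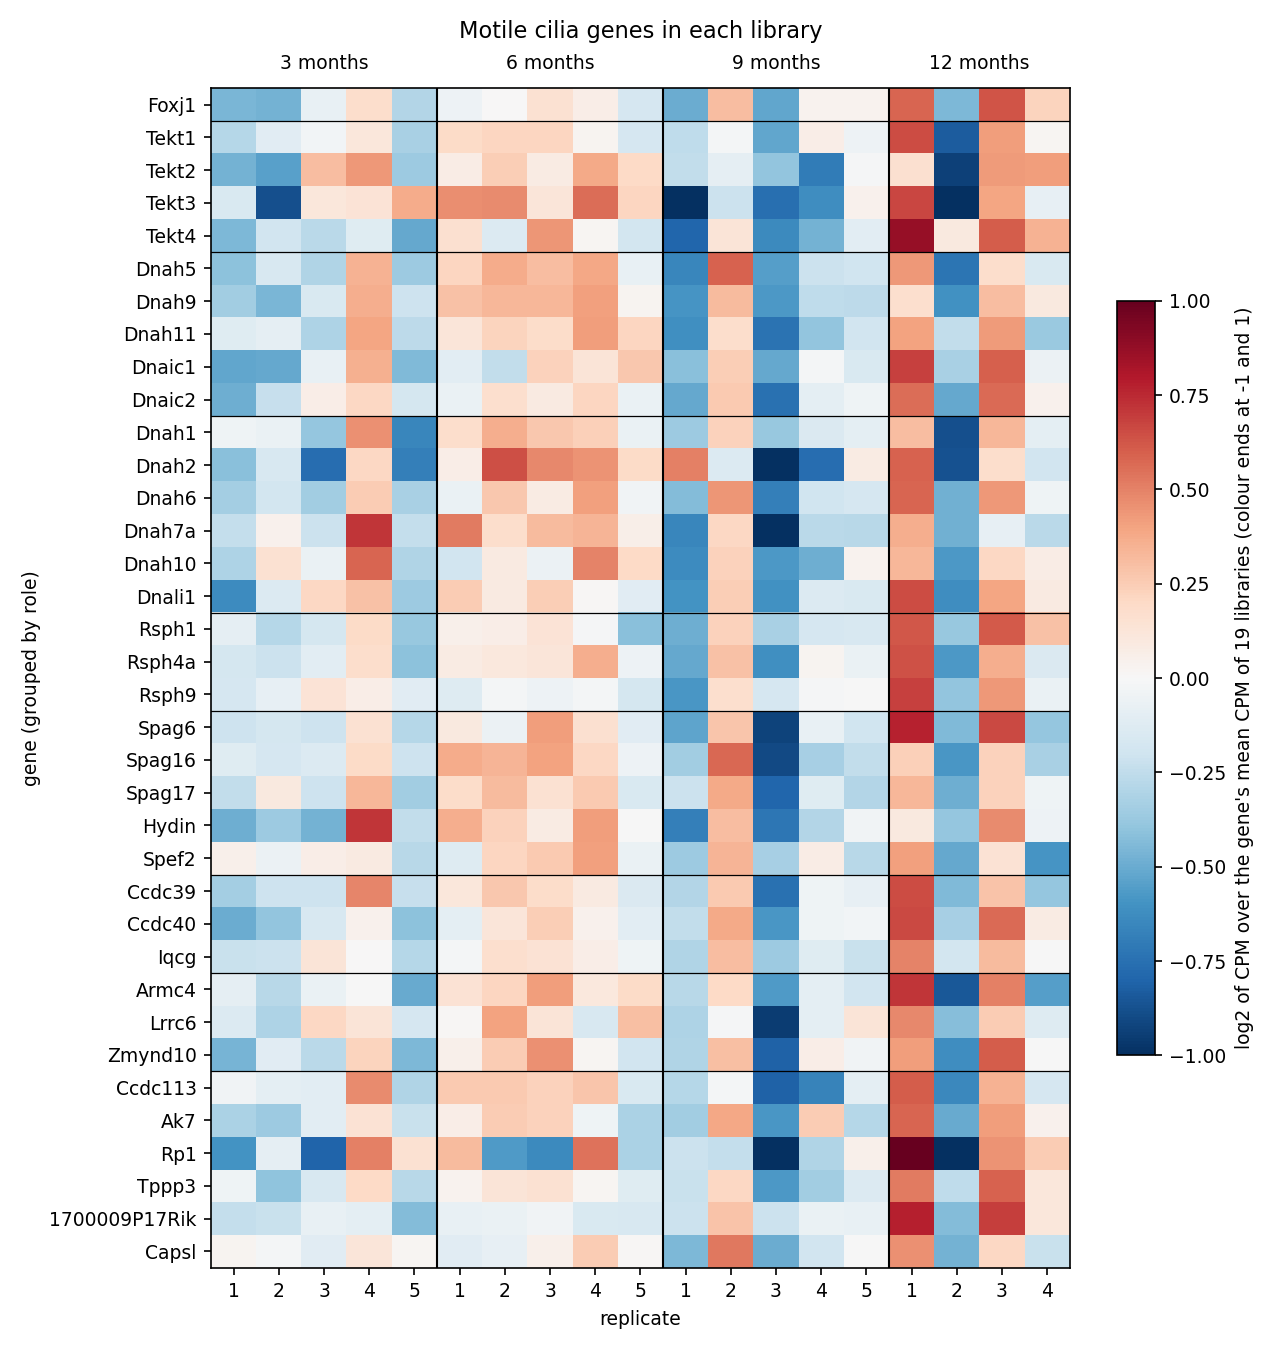
Level of each motile cilia gene (rows, grouped by role, the 8 heavy chains included) in each of 19 libraries (columns, by age), as log2 of CPM over that gene's mean over the libraries. Whole columns share a colour: the 12 month library 2 was the lowest of its age for 27 of the 28 genes found by symbol, and library 1 the highest for 22.

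Foxj1, the regulator, was taken as the reference for describing this shared movement. Foxj1 had 79.8, 79.2, 104, 124 and 89.5 CPM at 3 months and 106, 110.1, 122, 115 and 97.5 CPM at 6 months. The regulator had 77.7, 136, 76.3, 112 and 112 CPM at 9 months and 164, 80.2, 169 and 128 CPM at 12 months. The highest values of Foxj1 were in libraries 3 and 1 of 12 months, while library 2 of that age lay near the bottom of the 3 month range. After the mean of each age was subtracted, the log2 level of Foxj1 had a median Pearson r of 0.848 with the other 27 genes over 19 libraries, ranging from 0.62 for Rp1 to 0.965 for Dnaic2. Of the 27, 26 had an r over 0.7, compared with 2.56% of all 15517 other genes tested, whose median r was -0.067. Among those genes ranked by r with Foxj1, 11 of the 27 were in the first 100 and 26 in the first 500. The points of these correlations share their libraries and depth, so they describe these 19 libraries.

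**Figure D2:**
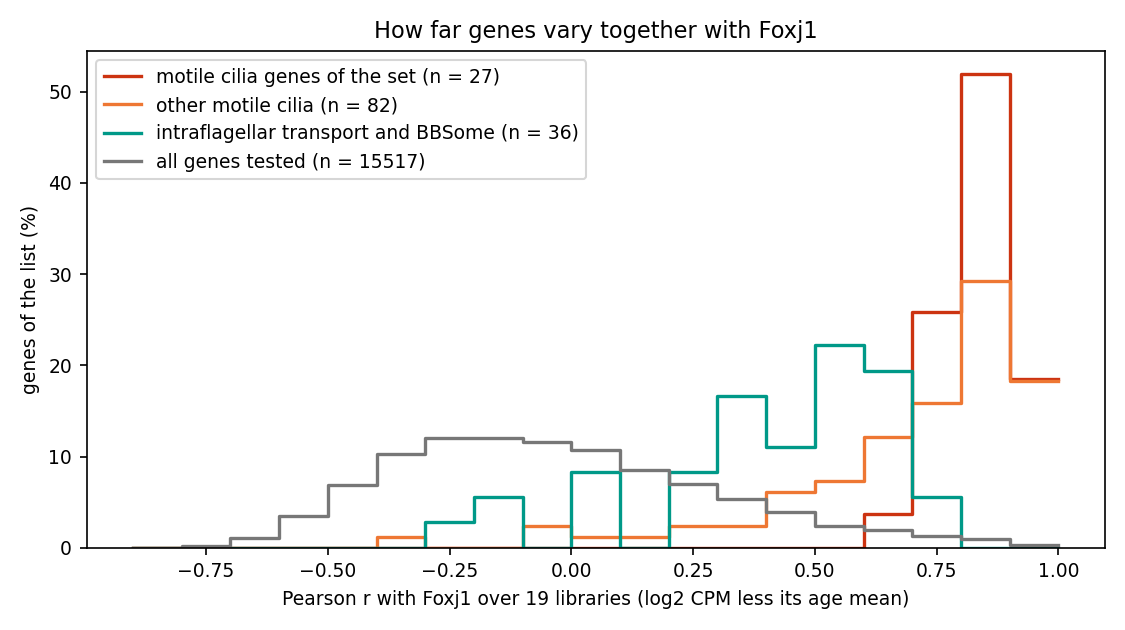
Share of each gene list (percent) in bins of Pearson r with Foxj1 over 19 libraries, after subtracting age means. The 27 genes of the set lie at 0.62 or above and the 82 other motile cilia genes have a median of 0.777, while the 36 intraflagellar transport and BBSome genes have a median of 0.434 and all genes tested one of -0.067.

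Each gene was also set against the mean log2 level of the other 27. Ccdc40 had the highest r with that mean at 0.97, then Rsph4a at 0.96 and Foxj1 at 0.956. The lowest were Tekt2 at 0.638, Rp1 at 0.667 and Tekt3 at 0.752, which are also the 3 with the lowest mean level, 4.68, 3.74 and 1.92 CPM. For a change of 1 in the mean log2 level of the others, Tekt3 changed by 1.52 and Iqcg, a gene of the nexin-dynein regulatory complex, by 0.63. The 8 heavy chains had a median r with Foxj1 of 0.786, from 0.482 for Dnah2 to 0.937 for Dnah9. Their within-age SD of log2 level had a median of 0.357, against 0.342 for the 27 other genes of the set and 0.197 for all genes tested.

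The 10 genes outside the set that moved most like its mean were chosen by r among tested genes with a mean of at least 1 CPM. Lrrc48, a gene of the nexin-dynein regulatory complex, had an r of 0.983, and Wdr78, of an inner dynein arm, and Vwa3a each had one of 0.977. Ccdc153, Cdhr3, 1700094D03Rik, Tm4sf1, Ccdc33, 1700003M02Rik and Fhad1 followed with an r of 0.954 to 0.972. Of these 10 genes, 5 stand in the list of 82 other motile cilia genes that was used for comparison.

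In the comparison of 12 with 3 months, Tekt4, Ccdc40 and 1700009P17Rik were higher at 12 months by edgeR's quasi-likelihood test with Benjamini-Hochberg adjustment over all genes tested. These 3 are 10.7% of the 28, against 22.4% of all 15518 genes called in either direction and 10.9% called higher, so the share called is close to the background. No gene of the set was called lower, where 11.5% of all genes were. The median log2 change of the 28 was 0.28, against 0.02 for all genes, with 27 of 28 positive and Spef2 the exception at -0.06 ± 0.20 (SE). Of all genes, 53% had a positive change. The 28 vary together between libraries, so their signs are not separate observations.

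Tektins are filament proteins that run along the inside of the doublets. Tekt4 had 5.70, 6.80, 6.46, 7.14 and 5.46 CPM at 3 months and 8.68, 7.07, 10.6, 7.90 and 6.83 CPM at 6 months. The tektin had 4.49, 8.49, 5.01, 5.61 and 7.22 CPM at 9 months and 14.2, 8.34, 11.9 and 9.89 CPM at 12 months. Every 12 month library of Tekt4 lies above every 3 month library, and it is the only one of the 28 whose libraries of these ages do not overlap; of all genes tested, 16.5% do not overlap in either direction and 6.72% lie wholly higher at 12 months. Tekt4 rose by 0.81 ± 0.20 on the log2 scale (SE; adjusted p = 0.00743), to 11.1 ± 2.54 CPM at 12 months (SD, n = 4), against 6.31 ± 0.714 CPM at 3 months (n = 5). Tekt1 had 17.02, 19.2, 20.3, 22.4 and 16.5 CPM at 3 months and 23.7, 24.1, 24.1, 21.1 and 18.5 CPM at 6 months. The tektin had 17.4, 20.4, 14.4, 21.8 and 20 CPM at 9 months and 32.6, 11.6, 27.6 and 21.1 CPM at 12 months. The highest and the lowest value of Tekt1 are both at 12 months, and its log2 change of 0.28 ± 0.20 did not pass (adjusted p = 0.331). Tekt2 had 3.38, 3.21, 5.81, 6.34 and 3.64 CPM at 3 months and 4.93, 5.55, 4.97, 6.09 and 5.37 CPM at 6 months. The gene had 3.94, 4.39, 3.57, 2.88 and 4.64 CPM at 9 months and 5.24, 2.45, 6.30 and 6.27 CPM at 12 months. The 3 and 12 month libraries of Tekt2 overlap. Tekt3 had 1.73, 1.05, 2.08, 2.11 and 2.48 CPM at 3 months and 2.65, 2.67, 2.08, 2.83 and 2.23 CPM at 6 months. The tektin had 0.71, 1.66, 1.14, 1.25 and 1.98 CPM at 9 months and 3.05, 0.459, 2.52 and 1.81 CPM at 12 months. The lowest and the highest value of Tekt3 both stand at 12 months. The log2 changes at 12 months were 0.18 ± 0.26 for Tekt2 and 0.05 ± 0.38 for Tekt3, with adjusted p-values of 0.659 and 0.936 by edgeR.

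Ccdc39 and Ccdc40 encode the coiled-coil ruler that sets the spacing of arms and spokes along the doublets. Ccdc40 had 29.8, 31.9, 37.5, 43.2 and 31.6 CPM at 3 months and 39.1, 45.6, 49.8, 43.1 and 38.9 CPM at 6 months. The ruler gene had 35.3, 54.5, 28.03, 40.7 and 41.0 CPM at 9 months and 66.3, 33.2, 62.0 and 44.3 CPM at 12 months. Libraries 1 and 3 of 12 months exceed every library of another age, while library 2 lies within the 3 month range. Ccdc40 rose by 0.56 ± 0.19 on the log2 scale (SE; adjusted p = 0.0386), to 51.5 ± 15.5 CPM at 12 months (SD, n = 4), against 34.8 ± 5.51 CPM at 3 months (n = 5). Ccdc39 had 23.7, 26.1, 26.0, 42.2 and 25.6 CPM at 3 months and 32.4, 36.3, 34.2, 32.04 and 27.1 CPM at 6 months. The partner had 24.5, 36.1, 17.9, 29.2 and 28.4 CPM at 9 months and 47.3, 22.2, 36.6 and 23.0 CPM at 12 months. The log2 change of Ccdc39 at 12 months was 0.17 ± 0.22 and did not pass (adjusted p = 0.629). Its 3 month library 4 was the second highest value of all 19 libraries, and lies apart from the other 4 of its age, at 23.7 to 26.1 CPM. Iqcg had a log2 change of 0.29 ± 0.14 (adjusted p = 0.14).

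1700009P17Rik encodes a protein at the base of motile cilia, where it helps to place them in the cell. 1700009P17Rik had 22.5, 22.8, 25.2, 24.9 and 19.7 CPM at 3 months and 25.3, 25.4, 25.9, 23.9 and 23.8 CPM at 6 months. The gene had 22.9, 32.4, 22.9, 25.4 and 25.3 CPM at 9 months and 45.6, 19.6, 42.9 and 28.7 CPM at 12 months. The values of 3 and 6 months lie close together, libraries 1 and 3 of 12 months are far above them, and library 2 of 12 months is the lowest of all 19. 1700009P17Rik rose by 0.57 ± 0.17 on the log2 scale (SE; adjusted p = 0.0244), to 34.2 ± 12.2 CPM at 12 months (SD, n = 4), against 23.0 ± 2.22 CPM at 3 months (n = 5). It was also the one gene of the 28 with a linear trend over the 4 ages, 0.52 ± 0.16 over 9 months (adjusted p = 0.021). That is 3.57% of the set, against 29.5% of all genes.

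**Figure D3:**
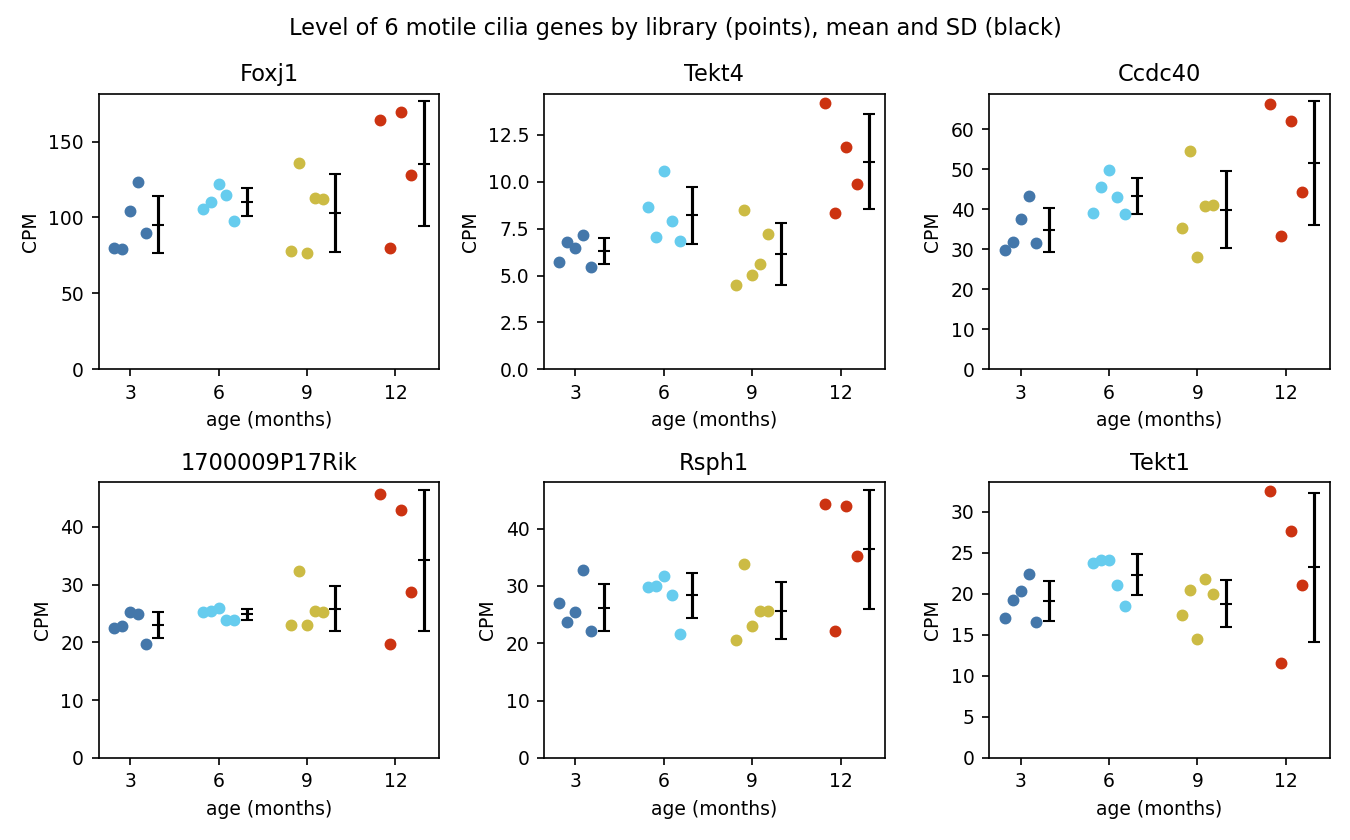
Level in CPM of 6 motile cilia genes by age in months, one point a library, with the mean and SD in black. The 12 month points of Tekt4 all lie above its 3 month points, while Ccdc40, 1700009P17Rik, Rsph1 and Foxj1 each have 3 higher libraries and 1 low library at 12 months.

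Foxj1, Rsph1 and Tppp3 missed the threshold narrowly. Foxj1 had a log2 change of 0.51 ± 0.20 at 12 months (SE; adjusted p = 0.0772). Rsph1, of the radial spoke head, had one of 0.47 ± 0.18 (adjusted p = 0.065) and Tppp3 one of 0.40 ± 0.16 (adjusted p = 0.0823). Rsph1 had 27.0, 23.7, 25.5, 32.9 and 22.1 CPM at 3 months and 29.9, 30.1, 31.7, 28.5 and 21.5 CPM at 6 months. The spoke gene had 20.5, 33.8, 22.9, 25.6 and 25.7 CPM at 9 months and 44.4, 22.2, 44.0 and 35.2 CPM at 12 months. Library 1 and library 3 of 12 months hold its highest values by a wide margin. Tppp3 had 86.0, 67.3, 79.5, 102 and 73.2 CPM at 3 months and 90.8, 97.1, 98.6, 89.7 and 81.8 CPM at 6 months. The gene had 76.0, 102, 59.6, 69.7 and 80.8 CPM at 9 months and 127, 74.5, 133 and 96.0 CPM at 12 months. For each of the 3, libraries 1 and 3 of 12 months are the highest of all, and library 2 lies within the 3 month range.

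The other spoke genes were Rsph4a, also of the spoke head, and Rsph9. Rsph4a had 44.7, 43.5, 47.0, 57.0 and 38.1 CPM at 3 months and 53.6, 54.4, 54.9, 65.2 and 48.7 CPM at 6 months. The gene had 35.5, 62.0, 33.1, 51.5 and 48.2 CPM at 9 months and 78.6, 34.0, 65.2 and 45.8 CPM at 12 months. Its values at 3 and 12 months overlap, with a log2 change of 0.28 ± 0.21 (adjusted p = 0.352). Rsph9 had a log2 change of 0.25 ± 0.17 (adjusted p = 0.315).

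Of the central pair genes none of 5 was called at 12 months, with a median log2 change of 0.10 and a range from -0.06 for Spef2 to 0.40 for Spag6; at an unadjusted p under 0.05 the count is also 0. Spag6 had 17.6, 18.1, 17.6, 22.7 and 16.75 CPM at 3 months and 21.8, 19.6, 27.2, 22.8 and 18.9 CPM at 6 months. The row had 14.1, 24.8, 10.7, 19.3 and 17.8 CPM at 9 months and 34.7, 14.99, 32.2 and 15.6 CPM at 12 months. Libraries 1 and 3 of 12 months stand above all others for Spag6, and libraries 2 and 4 of that age below every 3 month library. Hydin encodes a large protein of a central pair projection. Hydin had 17.2, 18.8, 17.4, 39.6 and 20.4 CPM at 3 months and 31.1, 28.3, 25.6, 32.2 and 24.1 CPM at 6 months. The gene had 14.98, 29.9, 14.6, 19.7 and 23.6 CPM at 9 months and 25.9, 18.4, 33.4 and 23.3 CPM at 12 months. In both, the 3 month library 4 stands above the other 4 libraries of its age, and for Hydin it is the highest of all 19. The log2 changes at 12 months were 0.40 ± 0.24 for Spag6 and 0.16 ± 0.25 for Hydin, with adjusted p-values of 0.259 and 0.694 by edgeR.

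Of the dynein arm genes found by symbol, Dnaic1 and Dnaic2, intermediate chains of the outer arm, had log2 changes of 0.48 ± 0.22 and 0.33 ± 0.21 at 12 months (SE; adjusted p = 0.125 and 0.265). Dnali1 had 18.1, 25.5, 32.2, 34.2 and 21.8 CPM at 3 months and 33.2, 29.7, 33.1, 28.1 and 25.8 CPM at 6 months. The inner arm light chain gene had 18.4, 33.1, 18.4, 25.4 and 25.1 CPM at 9 months and 43.9, 18.2, 36.7 and 29.8 CPM at 12 months. The log2 change of Dnali1 was 0.29 ± 0.23 (adjusted p = 0.384), and its 3 and 12 month libraries overlap. Of the 8 heavy chains, the motor subunits themselves, none was called in any comparison over all 19 libraries with age alone in the fit, by edgeR, DESeq2 or limma-voom. At an unadjusted p under 0.05 the count was 2 at 6 months and 0 at 9 months, at 12 months and for the trend. Their median log2 change at 6, 9 and 12 months was 0.30, -0.07 and 0.15. Dnah5 had 87.4, 104, 94.3, 148 and 90.3 CPM at 3 months and 135, 149.9, 144, 152 and 109.9 CPM at 6 months. The outer arm motor gene had 73.6, 175, 78.9, 99.7 and 101 CPM at 9 months and 157, 69.8, 131 and 104 CPM at 12 months. Its highest value is in the 9 month library 2 and its lowest in the 12 month library 2. Dnah9 had 30.3, 28.2, 34.8, 49.6 and 33.4 CPM at 3 months and 47.1, 48.5, 48.6, 51.2 and 39.2 CPM at 6 months. The gene had 25.6, 48.0, 25.9, 32.4 and 32.2 CPM at 9 months and 43.2, 25.4, 47.9 and 41.2 CPM at 12 months. For both outer arm motors, 4 of the 5 libraries of 6 months lie in a narrow high band, and the 9 and 12 month libraries spread from below the 3 month range up to that band, with Dnah5 in the 9 month library 2 and the 12 month library 1 above it. The log2 changes of Dnah5 at 6, 9 and 12 months over 3 months were 0.40 ± 0.23, 0.01 ± 0.23 and 0.14 ± 0.25 (SE), with adjusted p-values of 0.589, 0.973 and 0.718.

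The docking gene Armc4 and the assembly factor genes Lrrc6 and Zmynd10 had log2 changes at 12 months of 0.28 ± 0.24, 0.13 ± 0.21 and 0.36 ± 0.23, and none passed. Among the genes left, Ak7, which encodes an adenylate kinase of the axoneme, had one of 0.35 ± 0.21, Ccdc113 one of 0.10 ± 0.22, Capsl one of 0.03 ± 0.19 and Rp1 one of 0.53 ± 0.38. Rp1 had 2.48, 3.51, 2.15, 5.32 and 4.15 CPM at 3 months and 4.66, 2.52, 2.40, 5.44 and 3.00 CPM at 6 months. The gene had 3.23, 3.17, 1.82, 3.04 and 3.88 CPM at 9 months and 9.06, 1.68, 5.12 and 4.46 CPM at 12 months. The 12 month library 1 holds the highest value of Rp1 and library 2 the lowest.

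At 6 months none of the 28 genes was called against 3 months by edgeR, where 0.0193% of all genes were, and none had an unadjusted p under 0.05. DESeq2 and limma-voom also called none. Armc4 was the only gene of the 28 whose 6 month libraries did not overlap its 3 month libraries, where 3.64% of all genes did not. The median log2 change was 0.21, against -0.001 for all genes, with 27 of 28 positive and Rsph9 the exception at -0.05 ± 0.17. Of all genes, 49.8% had a positive change at 6 months. At 9 months none was called by edgeR, where 25% of all genes were, none had libraries apart from those of 3 months, where 15% of all genes did, and none had an unadjusted p under 0.05; DESeq2 and limma-voom called none. The median log2 change was -0.07 with 20 of 28 negative, from -0.48 ± 0.37 for Tekt3 to 0.20 ± 0.18 for Ccdc40. Of all genes, 52% had a positive change at 9 months. Without the libraries with Alb over 40 CPM, which left only libraries 4 and 5 of 9 months, none of the 28 was called. In that fit 7.09% of all genes were called, and the median log2 change of the 28 was 0.003. Without the libraries with Cr2 over 5 CPM none was called, where 17.6% of all genes were, and the median was -0.135. The 3 comparisons share the 3 month libraries, and the 28 genes vary together, so their signs are not separate observations.

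**Figure D4:**
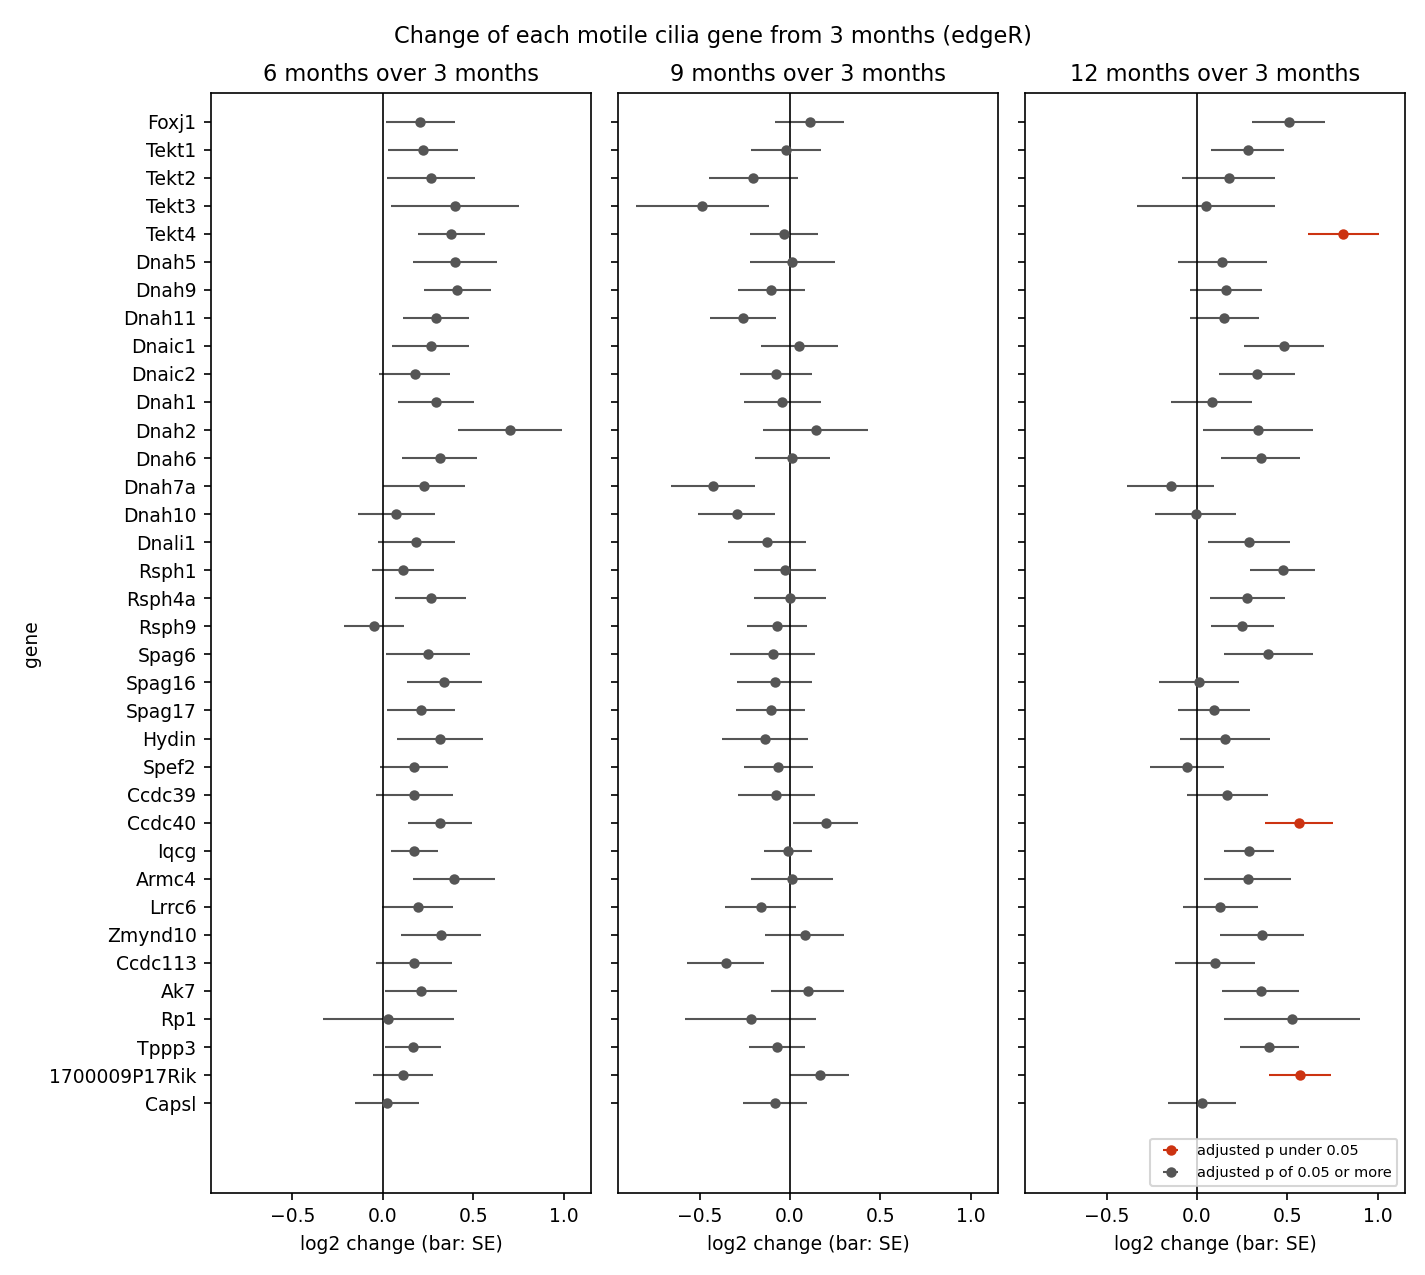
Log2 change (x, with SE bars) of each motile cilia gene (y) at 6, 9 and 12 months over 3 months, by edgeR. Only Tekt4, Ccdc40 and 1700009P17Rik at 12 months (red) have an adjusted p under 0.05, and 27 of the 28 genes found by symbol lie above 0 at 6 and at 12 months. Of all genes tested, 49.8% do at 6 months and 53% at 12 months. The 28 vary together, so their signs are not separate observations.

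The count at 12 months depended on single libraries. Without the 12 month library 2, 9 of the 28 were called, where 21% of all genes were, and the median log2 change was 0.49. Without the 3 libraries with Cr2 over 5 CPM, which include it, 12 were called, all higher, where 25% of all genes were called in either direction, and the median was again 0.49. In that fit 1 of the 8 heavy chains was called, Dnah6, of an inner arm, with a log2 change of 0.52 ± 0.17 (SE; adjusted p = 0.0331). Without the 3 month library 4 the count of the 28 was 7, where 20.5% of all genes were called. Without the 12 month library 1, the 12 month library 3 or the 3 month library 5 it was 1, Tekt4, where 17.8%, 13.5% and 16.1% of all genes were called. Tekt4 kept its call whichever library was left out. Ccdc40 lost it without each of the 3 month libraries 1, 2, 3 and 5 and the 12 month libraries 1 and 3, and 1700009P17Rik without the 3 month library 5 and the 12 month libraries 1 and 3. Without the 3 libraries with Alb over 40 CPM the same 3 genes were called.

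Other genes of cilia behaved in part like the set. Of 82 other motile cilia genes tested, 6 were higher and 2 lower at 12 months, with a median log2 change of 0.26. That is 7.32% called higher and 9.76% called in either direction. Of all genes, 10.9% were called higher, 11.5% lower and 22.4% in either direction. Ccdc65, of the nexin-dynein regulatory complex, rose by 1.16 ± 0.26, Nme9 by 0.81 ± 0.23 and Dnaaf1, an assembly factor gene, by 0.54 ± 0.16 (SE; adjusted p = 0.00592, 0.0184 and 0.0221). Dnahc17, a heavy chain gene known from the sperm tail, had a log2 change of -0.83 ± 0.23 (adjusted p = 0.0154) and a mean of 1.597 CPM at 12 months, against 2.84 CPM at 3 months. Of 36 genes of intraflagellar transport and the BBSome, which serve motile and non-motile cilia alike, none was higher and 1 was lower, Ift80, with a log2 change of -0.26 ± 0.09 (adjusted p = 0.0387); their median was 0.01. Called in either direction were 2.78% of those 36 genes, against 22.4% of all genes. Of 13 regulators of multiciliated cell formation, 1 was higher and 4 were lower, or 38.5% called in either direction. Myb, a transcription factor gene, rose by 0.74 ± 0.22 (adjusted p = 0.0231). Ccno, E2f5 and Plk4 had log2 changes of -1.23 ± 0.27, -0.43 ± 0.11 and -0.59 ± 0.15 (adjusted p = 0.0048, 0.00832 and 0.0086). Plk4 acts in centriole duplication in dividing cells, and Ccno is also known from oocytes. Of 12 oocyte genes 11 were lower at 12 months, with a median log2 change of -1.75, and the part of oocyte RNA in the fall of these regulators was not tested.

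The oviduct gene Ovgp1 varied in part with the set. Ovgp1, the main secreted glycoprotein gene of oviduct secretory cells, had 1687, 2338, 1624, 2699 and 2012 CPM at 3 months and 2515, 2419, 3289, 2368 and 2070 CPM at 6 months. The same gene had 2051, 6146, 3523, 3093 and 2921 CPM at 9 months and 4997, 2288, 3974 and 3068 CPM at 12 months. This oviduct transcript was abundant in every library, and highest in the 9 month library 2 and the 12 month library 1, which are also the highest of their ages for cilia genes. The match was not complete. The 9 month library 3 had the lowest summed level of the cilia genes of all 19 libraries, 513 CPM. Its Ovgp1, at 3523 CPM, was higher than in every other library of its age but library 2. Ovgp1 was higher at 12 months by 0.79 ± 0.27 on the log2 scale (SE; adjusted p = 0.0434) and at 9 months by 0.78 ± 0.26 (adjusted p = 0.0345). The call at 12 months was lost without any one of the 3 month libraries 1, 2, 3 and 5 or the 12 month libraries 1 and 3. Over the 19 libraries, after subtracting age means, Foxj1 and Ovgp1 had a Pearson r of 0.70 (permutation p = 0.0062, adjusted 0.012) and a Spearman rho of 0.55 (permutation p = 0.043, adjusted 0.073). Without the 12 month library 2 and the 9 month library 2, the farthest from the median of Foxj1, r was 0.56. Foxj1 and Pax8, a transcription factor gene of oviduct secretory cells, had an r of 0.62 (permutation p = 0.037, adjusted 0.037) and a rho of 0.53 (permutation p = 0.073, adjusted 0.073), and r was 0.44 without the same libraries. The adjustment is over these 2 relations. The 10 oviduct secretory genes had a median r of 0.371 with Foxj1, from -0.077 to 0.702, and Ovgp1 was the highest of them. The median r with Foxj1 of 13 ovarian surface epithelium genes was 0.123.

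With the log2 level of Ovgp1 as a covariate, none of the 28 genes was called at 12 months by edgeR, the median log2 change was -0.13, and 3.98% of all genes were called in place of 22.4%. At an unadjusted p under 0.05 the count in that fit was 4. At 9 months the same fit called Capsl, which had a lower level, and 5 of the 8 heavy chains, Dnah5, Dnah7a, Dnah9, Dnah10 and Dnah11, all lower, where 8.54% of all genes were called. At an unadjusted p under 0.05 the count at 9 months was 17 of the 28, and their median log2 change was -0.43. Ovgp1 itself differs between the ages, so this fit removes whatever of age runs with it. Of the whole list of 10 oviduct secretory genes, 2 were higher at 12 months, Ovgp1 and Muc1, and 8 were not called. The summed level of the list was 2697 to 5536 CPM at 12 months, against 1935 to 3191 CPM at 3 months. Most of that sum is Ovgp1 alone, at 2288 to 4997 CPM at 12 months and 1624 to 2699 CPM at 3 months. Of 13 ovarian surface epithelium genes 5 were higher, with a summed level of 882 to 1378 CPM at 12 months, against 801 to 1017 CPM at 3 months. Of 4 genes of epithelia in general 3 were higher, and of 6 smooth muscle genes 5 were higher. These counts are from the fit with age alone, which called 10.9% of all genes higher at 12 months. At 9 months that fit called 2 of the 10 oviduct secretory and 7 of the 13 surface epithelium genes higher. It also called 5 of the 6 smooth muscle genes higher but 0 of the 4 general epithelium genes. None of the 28 cilia genes was called there, where 25% of all genes were called in either direction. Over all genes, that fit called 1754 of 15518 higher at 9 months. The part of these tissues in the levels of the cilia genes was not tested beyond these values.

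**Figure D5:**
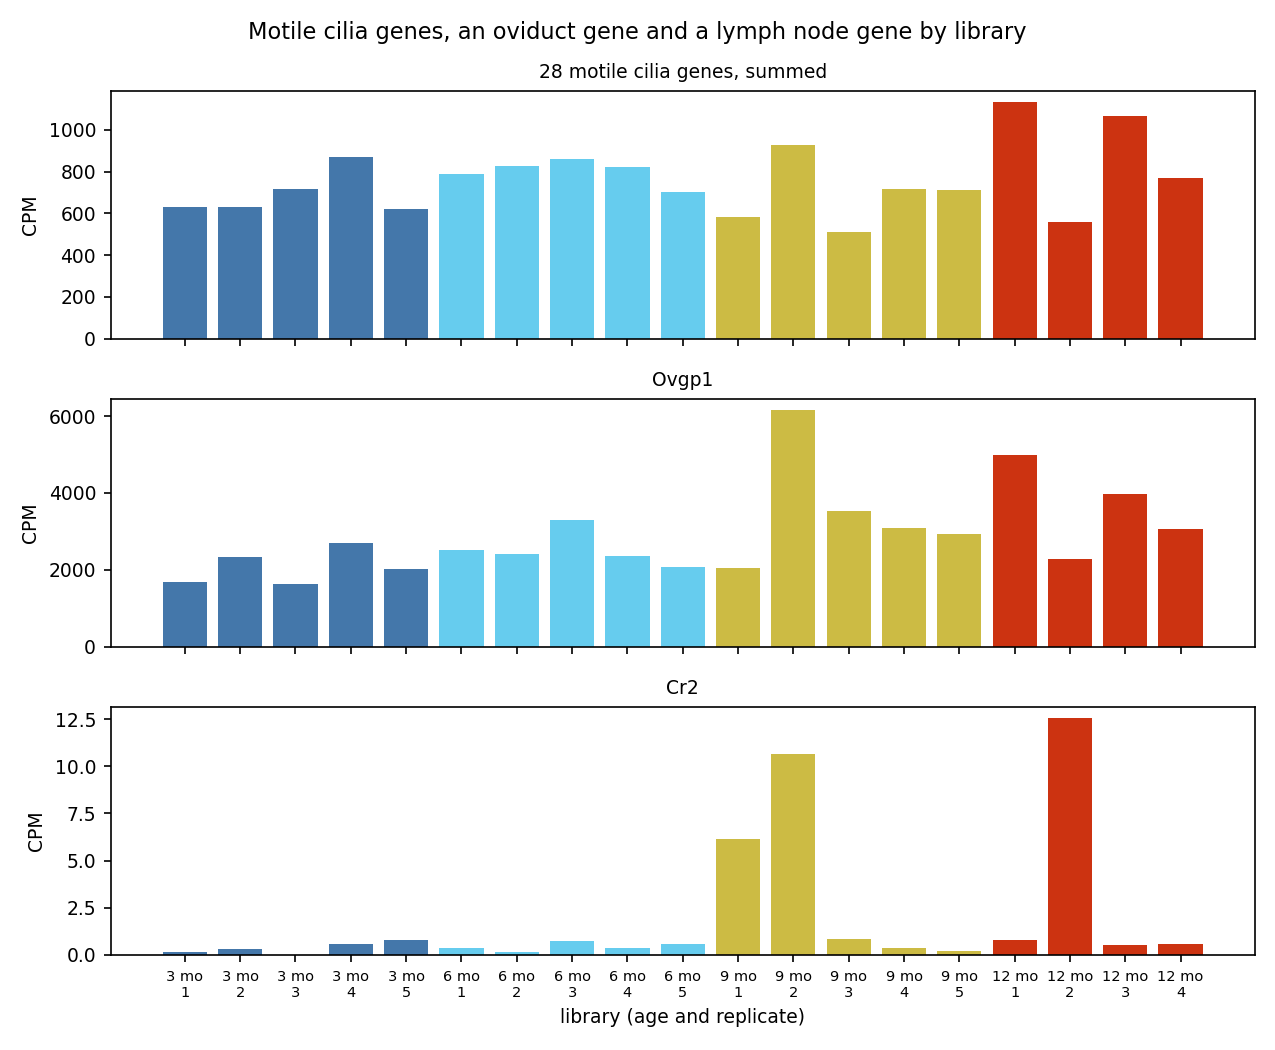
Summed CPM of the 28 motile cilia genes (top), CPM of Ovgp1 (middle) and CPM of Cr2 (bottom) in each library, by age in months and replicate. The 9 month library 2 and the 12 month library 1 are the highest of their ages for both the cilia genes and Ovgp1, and the 12 month library 2 is low for both and the highest for Cr2. The 9 month library 3 is the lowest of all for the cilia genes but not for Ovgp1.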

How the data were processed

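RNA of whole ovaries was sequenced in 19 libraries, placed in their ages by the age label and matched to columns by title. The authors deposited estimated counts per gene, which are not always whole numbers; the file headers call them raw values. They also deposited log2 values, whose normalization is not given in the sources, and which served only in an alternative. Per the submitters' processing notes the genome build was mm10. The sources used here name no aligner, no counter and no strand setting, so overlapping genes and near copies such as the Spag6 row are uncertain. Both tables hold 1 further column that matched no sample, and it was left out.

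Counts were rounded and tested with edgeR 4.0.16 (R 4.3.3; quasi-likelihood, robust, TMM, all 19 libraries, a mean per age or a linear trend given over 9 months) after a filter at a minimum count of 10 and total of 15. P-values were adjusted by Benjamini-Hochberg over all genes tested, and called under 0.05. SE is the absolute log2 change over the root of F. Correlations used log2 CPM with a prior count of 2, less its age mean. DESeq2 1.42.0 and limma 3.58.1 were alternatives. Scripts were tested on simulated data. Exonic lengths are from GENCODE M21 and coordinates from RefSeq GRCm38.p6, the assembly that UCSC names mm10. Over 36 pairs of libraries of one age, chi-square per degree of freedom of the counts ran from 5.11 to 38.8, so no pair agreed within sampling noise. CPM of the lowest genes rests on few counts.

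Values in every library are given for genes called in any comparison, for 12 genes chosen by role, and for the 3 with the highest and the 3 with the lowest r with the mean of the others. From comparison lists up to 4 called genes are named by smallest p at 12 months. The genes and lists were chosen with earlier results of these data known. The search letters of the promoters and the sets without Alb libraries were chosen after seeing the data.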

Additional observations from a re-analysis of the deposited data

Results flagged for a closer look

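Screened at each age were the cilia genes given by library, Ovgp1 and the sum of the 28, in 76 groups of 4 or 5 libraries. Among these, 6 values stood apart from the rest of their age by Dixon's ratio at its 95% critical value. Chance flags about 1 in 20 groups. In the 3 month library 4, Dnah5 was at 148 CPM with the other 4 libraries at 87.4 to 104 CPM. In that library Spag6 was at 22.7 CPM with the others at 16.7 to 18.1 CPM, and Hydin was at 39.6 CPM with the others at 17.2 to 20.4 CPM. Ccdc39 was at 42.2 CPM there with the others at 23.7 to 26.1 CPM. In the 9 month library 2, Dnah5 was at 175 CPM with the others at 73.6 to 101 CPM, and 1700009P17Rik was at 32.4 CPM with the others at 22.9 to 25.4 CPM. All 6 are high values, and these libraries were the highest of their ages for 23 of the 28 genes each, so the 6 are not independent of one another. What sets these libraries apart was not tested.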

How the results depend on the processing

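No paired analysis was possible because the labels give no replicate number shared between ages. The count of motile cilia genes called at 12 months, 3 with edgeR, was 5 with DESeq2, 6 with limma-voom, 1 with limma-trend on the authors' deposited log2 values, 1 with only the ages compared in the fit, 0 with Ovgp1 as a covariate and 12 without the libraries with Cr2 over 5 CPM. It ran from 1 to 9 when single libraries were left out. For the trend, 1 with edgeR, it was 2 with RLE size factors, 3 with DESeq2, 0 with limma-trend, 0 with the Ovgp1 covariate, 5 without the Cr2 libraries and 4 without those with Alb over 40 CPM, and ran from 0 to 5 when single libraries were left out. It fell to 0 without the 12 month library 1 or 3. At 9 months it was 1 with the Ovgp1 covariate, and that fit gave Dnah5 a log2 change of -0.595 (adjusted p = 0.0133), turned from 0.01. Over all genes, the 3 called at 6 months became 47 with DESeq2, 174 with limma-voom, 0 with limma-trend (1425 at an unadjusted p under 0.05), 34 with only the ages compared and 8 without the Cr2 libraries, and ran from 0 to 4 with single libraries left out. With the Ovgp1 covariate 1325 genes were called at 9 months, 617 at 12 months and 790 for the trend. Without the Alb libraries 1118 were called at 9 months. With single libraries left out, 2124 (without the 12 month library 3) to 3665 were called at 12 months. The call of Ovgp1 at 12 months was lost with limma-trend (0.756, adjusted p = 0.0657) and with no filter (0.789, adjusted p = 0.0644), and its log2 change ran from 0.585 to 0.952 with single libraries left out. The median r with Foxj1 was 0.751 without the Cr2 libraries, and ran from 0.779 to 0.862 with single libraries left out. Tekt4 at 12 months lost its call only with the Ovgp1 covariate (0.355, adjusted p = 0.207), among the alternatives run. The causes of these shifts were not tested. With 4 or 5 libraries an age, only changes well beyond the spread between libraries could be called, and that spread was wide for cilia genes at 12 months.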
